A study of Mus musculus with 24 samples.

Results

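Short beta-chain CDR3s, those of 11 or fewer residues as the deposited tables write them, were described in T cells from mouse tumors. Every sequence without a stop mark and with at least 2 counts entered, and a clonotype was a CDR3 amino acid sequence with its V and J gene. Of 47705 distinct TCRβ clonotypes in the 24 tumors, 6290 (13.2%) were short, and they held 2626329 of 7463100 retained counts (35.2%). They were compared with the 39925 mid-length clonotypes of 12 to 16 residues. A further 1490 clonotypes were longer and entered totals only.

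All 12 mice were female BALB/c animals, 7 to 9 weeks old when obtained. They carried in each flank a tumor of the colon cancer line CT26.CL25, which the study calls CT26 for short. RNA of whole tumors was used, with 1 TCRβ library per tumor. Both tumors of mice 6, 12 and 14 were taken on day 13 (time-matched, no drug). In the other 9 mice 1 tumor was removed by surgery on day 9 and the other was taken 11 days later. Of these time-separated mice, 4, 17 and 19 were untreated, 3, 11 and 20 received decitabine (DAC), an inhibitor of DNA methylation, dosed at 0.5 mg/kg, and 7, 10 and 16 received 2 mg/kg. DAC was injected into the peritoneum on 5 consecutive days from 3 days after surgery, and the last tumor was taken 4 days after the last dose. Tumors are numbered 1 and 2 in the labels, without side or day, so tumor 2 minus tumor 1 is no direction in time. Libraries held 63291 to 887567 retained counts (median 206448). Every time-matched library had at least 375898 counts and no untreated time-separated library had more than 207072. In RNA of whole tumors, fewer cells of a clone and less receptor RNA per cell cannot be told apart.

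The CDR3 is the loop of the receptor that lies over the bound peptide. On the beta chain it is made in the thymus by joining 1 V, 1 D and 1 J segment of the Trb locus on mouse chromosome 6, while bases are trimmed from the ends and untemplated bases are added by the enzyme TdT. A joint with strong trimming and few added bases is short and close to germline sequence, and such joints are known to arise many times in separate cells and animals. A receptor found in many animals is called public. Several nucleotide sequences can encode 1 CDR3, and cells with the same sequence can still come from separate joints.

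The nucleotide sequences below belong to short clonotypes that the results turn on, some with several main sequences and some with 1. Capitals mark the codons of the residues between the first 4 and the last 4, and each sequence is the one with the most counts in the mice named. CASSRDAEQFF (TRBV17, TRBJ2-1) is the largest short clonotype of the study, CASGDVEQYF and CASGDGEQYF (TRBV13-2, TRBJ2-7) are both found in 11 mice, and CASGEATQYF (TRBV13-2, TRBJ2-5) is the largest short TRBV13-2 clonotype.
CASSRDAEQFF, mouse 6 and 7 other mice: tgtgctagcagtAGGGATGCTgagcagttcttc
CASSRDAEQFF, mice 11, 12 and 19: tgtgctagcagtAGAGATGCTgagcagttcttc
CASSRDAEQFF, mouse 14: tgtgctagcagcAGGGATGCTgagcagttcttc
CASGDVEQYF, all 11 mice: tgtgccagcggtGATGTTgaacagtacttc
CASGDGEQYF, all 11 mice: tgtgccagcggtGATGGTgaacagtacttc
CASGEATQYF, all 11 mice: tgtgccagcggtGAGGCCacccagtacttt

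Nearly all short CDR3s had 10 or 11 residues. Length 11 had 4841 distinct clonotypes and length 10 had 1358, against 66 of length 9, 16 of length 8, 4 of length 7 and 5 of length 6. Length 11 took 24.3% ± 15.5 of counts and 12.4% ± 4.75 of clonotypes (mean ± SD over 12 mice, the tumors of a mouse averaged), and it was the length with the highest mean share of counts. Length 12, just outside the limit, had 4262 clonotypes and took 5.98% ± 3.91 of counts and 8.59% ± 2.42 of clonotypes. Length 10 took 7.18% ± 9.21 of counts, with a range over mice from 0.129% to 33.3%. By number of clonotypes the peak lay at 14 residues, with 23.1% ± 4.55. The form that begins with cysteine and ends with phenylalanine made up 76.3% of the short clonotypes and 99.0% of their counts, so that the other forms were small. Among mid-length clonotypes that form made up 89.8%, and 99.2% of their counts.

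**Figure D1:**
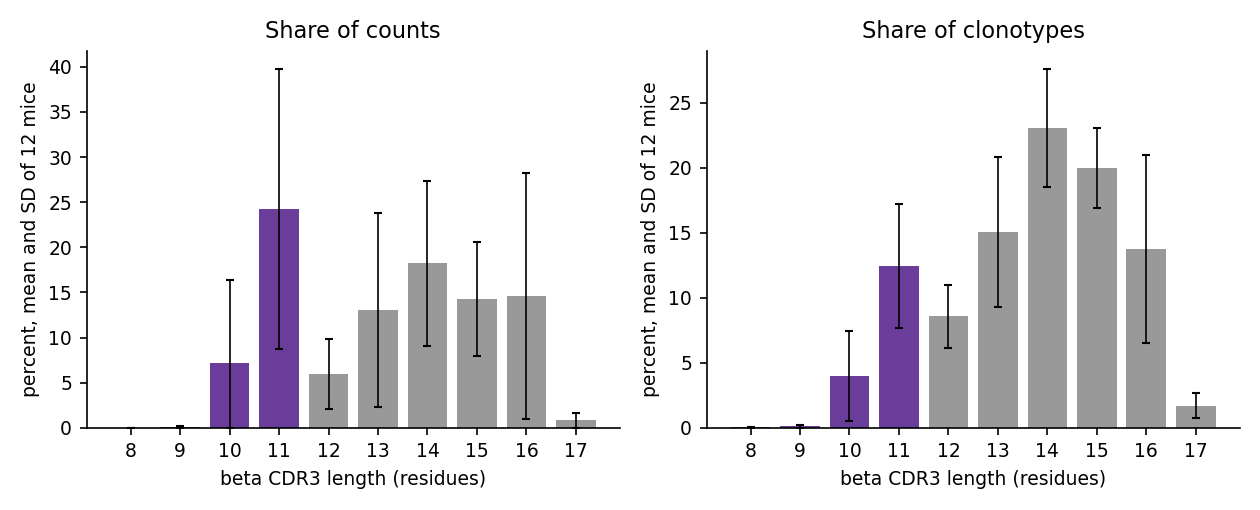
Percent of TCRβ counts (left) and of clonotypes (right) by CDR3 length in residues, from 8 to 17, as the mean of 12 mice with the SD as error bars, which are drawn no lower than 0. Purple bars are short CDR3s. Length 11 stands at 24.3% of counts and 12.4% of clonotypes, with a low bar at length 12.

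The first question was how much of each tumor's repertoire the short CDR3s took and whether this depended on the harvest or the drug. In the time-matched mice mouse 6 had 63.5% and 64.5% of counts in short CDR3s (tumor 1 and tumor 2), mouse 12 had 19.0% and 19.0%, and mouse 14 had 32.6% and 28.2%. In the untreated time-separated mice mouse 4 had 29.1% and 19.0%, mouse 17 had 31.3% and 36.2%, and mouse 19 had 18.8% and 19.4%. The highest values were those of time-matched mouse 6, and within each time-matched mouse the tumors lay close together. Under 0.5 mg/kg DAC mouse 3 had 29.6% and 16.1%, mouse 11 had 17.7% and 13.7%, and mouse 20 had 33.7% and 55.5%. Under 2 mg/kg mouse 7 had 23.6% and 36.8%, mouse 10 had 10.9% and 26.8%, and mouse 16 had 55.0% and 56.2%. The groups overlapped, and the widest exact 95% confidence interval (Clopper-Pearson) of any of these shares was 0.748 percentage points, which covers counting error only.

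The mean share of counts was 37.8% ± 23.4 in time-matched, 25.6% ± 7.45 in untreated time-separated, 27.7% ± 15.1 in 0.5 mg/kg DAC and 34.9% ± 18.8 in 2 mg/kg DAC mice (SD, n = 3 mice each). Time-matched mice did not differ beyond this spread from untreated time-separated mice (difference 12.2 points, exact permutation test, two-sided, p = 0.7, where 3 against 3 allow no p below 0.1) or from all 9 time-separated mice (8.42 points, exact permutation test, p = 0.464). The first difference turned to -0.902 and the second to -4.69 points without mouse 6, whose largest clonotype was short. The 3 time-separated groups could not be told apart either (exact permutation of the mice, p = 0.739 for the sum of squares between groups). Under 2 mg/kg DAC tumor 2 was higher in 3 of 3 mice, by 10.1 ± 7.83 points (an exact two-sided sign-flip test gave p = 0.25, and 3 pairs allow none lower). The tumors of a mouse differed by 1.82 ± 2.33 points in time-matched and by 9.44 ± 7.27 points in time-separated mice, regardless of sign (exact permutation test, 3 against 9, p = 0.105). As a share of clonotypes, taken in libraries thinned to 63291 counts, the short CDR3s made up 15.4% ± 6.23, 14.4% ± 1.95, 13.7% ± 4.70 and 18.0% ± 6.64 in the same order of groups (exact permutation tests between groups, p from 0.582 to 1).

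**Figure D2:**
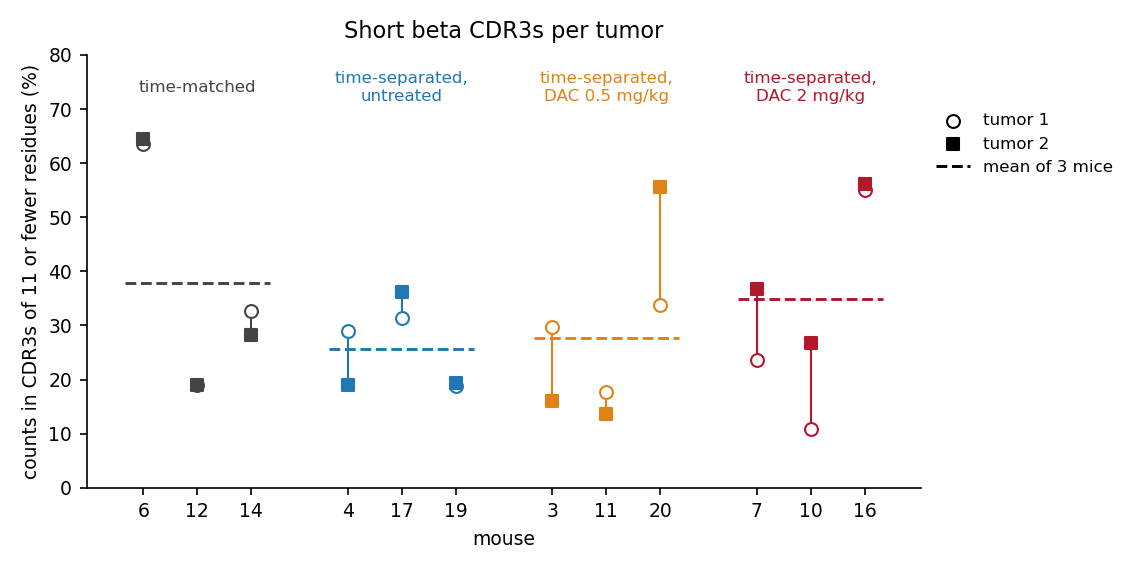
Percent of retained TCRβ counts in CDR3s of 11 or fewer residues, 1 open circle (tumor 1) and 1 filled square (tumor 2) per mouse, joined by a line, with the group mean of 3 mice dashed. Values run from 10.9% in tumor 1 of mouse 10 to 64.5% in tumor 2 of mouse 6, and the groups overlap.

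Over all 12 mice the short CDR3s took 31.5% ± 15.6 of counts but 15.4% ± 4.76 of clonotypes. Their mean clone size was accordingly high: a short clonotype had 69.4 ± 20.2 counts in a tumor and a mid-length clonotype 27.2 ± 5.74 (thinned libraries, SD, n = 12 mice). Over mice the short mean ran from 48.4 through a median of 62.5 to 114.1, and the mid-length mean from 13.2 through 28.5 to 32.9, without overlap. The log2 ratio of the means was 1.34 ± 0.62, above 0 in 12 of 12 mice (p = 0.000488 by an exact two-sided sign-flip test, which can go no lower). The median short clonotype was the smaller one, with 2.43 ± 0.477 against 3.81 ± 1.33 counts (log2 ratio of medians -0.60 ± 0.30, lower in 11 mice and equal in 1, exact sign-flip test, p = 0.000977). The call on the medians was lost with single counts kept (0, p = 1) and with a minimum of 10 counts (-0.0446, exact sign-flip test, p = 0.425). Without the largest clonotype of each mouse, whatever its length, the log2 ratio of means was 1.01 (higher in 11 of 12 mice, exact sign-flip test, p = 0.000977). Without the largest short clonotype of each mouse, with all mid-length ones kept, it was 0.16 (exact sign-flip test, p = 0.541), and without TRBV17 it was 0.50 (p = 0.177). At lengths of 10 or fewer it was likewise 0.50 (exact sign-flip test, p = 0.193).

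Of the 10 largest clonotypes of each mouse, 38 of 120 (31.7%) were short, between 1 and 5 per mouse, and the largest of all was short in mice 6, 7, 16, 17 and 20. The largest short clone differed from mouse to mouse, and in 9 of the 12 mice it used TRBV17. In mouse 6 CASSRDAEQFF took 56.1% of counts in tumor 1 (328921 of 586318) and 56.2% in tumor 2 (211433 of 375898). In mouse 16 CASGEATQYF took 266284 of 887567 counts (30.0%) and 33.1%, and in mouse 12 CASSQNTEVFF (TRBV17, TRBJ1-1) took 17.0% and 16.8%. The leading short clones of mice 6, 12 and 16 thus changed little between tumors. Mouse 17 had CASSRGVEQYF (TRBV17, TRBJ2-7) at 15.4% and 16.6%, and mouse 14 had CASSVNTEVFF (TRBV17, TRBJ1-1) at 12.5% and 9.93%. Mouse 19 had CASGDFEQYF (TRBV13-2, TRBJ2-7) at 7.80% and 8.57%. In mouse 4 it was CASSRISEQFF (TRBV17, TRBJ2-1) at 4.32% and 6.10%. Mice 3, 7, 10 and 20 had leading short clones whose share differed more than 2-fold between tumors. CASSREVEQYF (TRBV17, TRBJ2-7) took 0.606% and 15.9% in mouse 7, and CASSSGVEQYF (TRBV17, TRBJ2-7) took 6.89% and 19.0% in mouse 10. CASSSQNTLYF (TRBV17, TRBJ2-4) took 6.28% and 19.5% in mouse 20, and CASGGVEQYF (TRBV29, TRBJ2-7) took 10.5% and 3.23% in mouse 3. In untreated mouse 4 the largest short clone of tumor 1 alone, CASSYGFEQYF (TRBV4, TRBJ2-7), took 7.10% and 2.45%, so which mice show such a change depends on which clone is taken. The largest clonotype of 9 or fewer residues was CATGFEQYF (TRBV29, TRBJ2-7), found in mouse 7 alone at 0.922% in tumor 1 and 0.0312% in tumor 2.

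The V segments of short CDR3s were next compared with those of mid-length CDR3s as percent of the clonotypes of a mouse. Of 17 TRBV segments tested, 11 (64.7%) passed an adjusted p of 0.05, and of these 1 was higher and 10 were lower among short CDR3s. The higher one was TRBV17, which made up 42.2% ± 17.2 of short and 6.34% ± 3.41 of mid-length clonotypes (SD, n = 12 mice). Its short share ran from 5.52% in mouse 3 to 69.7% in mouse 6, and it was above the mid-length share in 11 of 12 mice (exact sign-flip test, p = 0.00208 after Benjamini-Hochberg adjustment over segments). Mouse 3 was the exception, with 5.52% of short and 11.2% of mid-length clonotypes. By counts TRBV17 took 58.7% ± 30.6 of the short class, from 3.89% to 97.6%.

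TRBV13-2 was the second most used segment, with 19.1% ± 15.5 of short and 11.3% ± 2.17 of mid-length clonotypes, higher in 8 of 12 mice (exact sign-flip test, adjusted p = 0.139). It ranged from 4.35% of short clonotypes in mouse 6 to 60.2% in mouse 16, so the mice differed widely. The largest short clone used TRBV17 in mouse 6 and TRBV13-2 in mouse 16. Close variants of a clone counted as clonotypes of their own in these percents. TRBV29 was the third, with 6.25% ± 6.70 against 3.99% ± 1.52 (exact sign-flip test, adjusted p = 0.333). The 10 lower segments included the most used segment of mid-length CDR3s, TRBV13-1, at 6.11% ± 6.29 against 18.0% ± 5.55 (lower in 11 of 12 mice, exact sign-flip test, adjusted p = 0.00528). TRBV19 stood at 3.93% against 9.08% and TRBV5 at 1.82% against 8.66%. The other 7, TRBV13-3, TRBV20, TRBV31, TRBV1, TRBV2, TRBV3 and TRBV16, each made up less than 3% of short clonotypes. The call on TRBV20 was lost with a minimum of 10 counts (-0.309 points, exact sign-flip test, adjusted p = 0.56).

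Seen from the segment, 47.1% of the 5653 distinct TRBV17 clonotypes were short, against 21.0% of 6021 TRBV13-2, 20.2% of 2044 TRBV29 and 2.73% of 3663 TRBV5 clonotypes. TRBV17 and TRBV13-2 filled different lengths. Of the TRBV17 clonotypes 2658 had 11 residues, 5 had 10 and 342 had 12. Of the TRBV13-2 clonotypes 911 had 10 residues, 339 had 11 and 454 had 12. With the limit moved to 10 residues, TRBV17 accordingly turned to 5.97 points below its mid-length share (adjusted p = 0.000830) and TRBV13-2 to 46.7 points above it (exact sign-flip tests, adjusted p = 0.000830).

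Of 12 TRBJ segments tested, 10 (83.3%) passed, 2 higher and 8 lower among short CDR3s. TRBJ2-7 made up 43.4% ± 16.8 of short and 16.3% ± 2.87 of mid-length clonotypes (higher in 11 of 12 mice, exact sign-flip test, adjusted p = 0.00220). TRBJ1-1 made up 21.6% ± 14.2 and 7.41% ± 1.35 (higher in 10 of 12 mice, exact sign-flip test, adjusted p = 0.00456), a call that was lost with the limit at 10 residues (5.33 points, adjusted p = 0.65). TRBJ2-7 ran from 11.3% of short clonotypes in mouse 6 to 65.0% in mouse 17, and TRBJ1-1 from 5.07% in mouse 3 to 49.0% in mouse 12. The largest short clone used TRBJ2-7 in mouse 17 and TRBJ1-1 in mouse 12. TRBJ2-1, with 16.4% ± 17.8 against 14.0% ± 2.45, and TRBJ2-5, with 9.93% ± 13.6 against 13.0% ± 3.22, did not pass (exact sign-flip tests, adjusted p = 0.713 and 0.515). Each of the 8 lower segments made up less than 4% of short clonotypes, and TRBJ2-2 fell furthest in proportion, from 5.96% ± 1.41 to 0.354% ± 0.340. By segment, 31.2% of TRBJ1-1 and 26.6% of TRBJ2-7 clonotypes were short, against 0.724% of TRBJ2-2. The pairs TRBV17 with TRBJ1-1, TRBJ2-7 and TRBJ2-1 held 16.0%, 14.3% and 12.2% of the short clonotypes of a mouse on average, and TRBV13-2 with TRBJ2-7 held 10.8%.

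**Figure D3:**
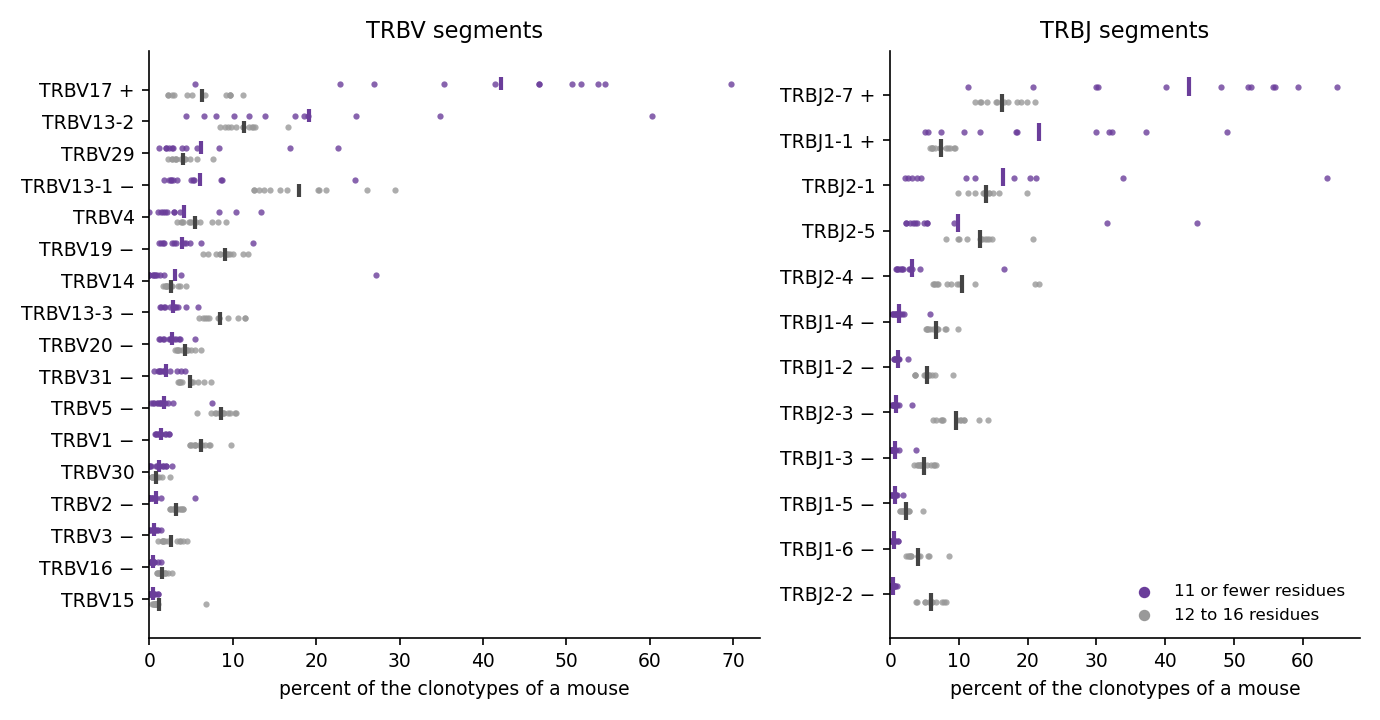
Percent of the clonotypes of a mouse that used each TRBV (left) and TRBJ (right) segment, for short (purple) and mid-length (grey) CDR3s, with 1 point per mouse and a vertical bar at the mean of 12 mice. Plus and minus mark segments that passed as higher or lower among short CDR3s. TRBV17, TRBJ2-7 and TRBJ1-1 are the only ones marked with a plus.

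The residues of the short CDR3s were next counted by position. Among the 1891 TRBV17 clonotypes of 11 residues with the cysteine and phenylalanine ends, position 4 was serine in 68.4%, position 5 was arginine in 38.4%, position 6 was aspartate in 26.2% and asparagine in 21.0%, and position 7 was alanine in 23.6%, valine in 22.3% and threonine in 21.0%. Among the 584 such TRBV13-2 clonotypes of 10 residues, position 4 was glycine in 80.1%, position 5 was glutamate in 38.2% and aspartate in 36.0%, and position 6 was alanine in 41.6%. These were distinct clonotypes of all mice together, and sequences 1 base from a large clone could count as clonotypes of their own. The first residue given at each position is also that of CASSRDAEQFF for TRBV17 and of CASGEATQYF for TRBV13-2. The part of such sequences in these percents was not tested. The ending EQYF closed 32.3% ± 12.6 of short and 14.6% ± 2.94 of mid-length clonotypes, and EVFF closed 14.0% ± 8.45 and 6.10% ± 1.06. The ending TLYF went the other way, with 3.24% ± 2.52 and 21.9% ± 5.49 (SD, n = 12 mice).

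No D segment was named by the authors' software for 62.6% ± 18.5 of short sequences and for 15.6% ± 3.01 of mid-length sequences, and the short share was higher in 12 of 12 mice. The part of CDR3 length itself in this share was not tested.

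Sharing between mice was then asked of both classes. Of the short clonotypes of a mouse, 28.5% ± 10.4 were found in at least 1 other mouse, against 8.89% ± 1.08 of the mid-length ones (thinned libraries, SD, n = 12 mice). The short share ran from 14.1% in mouse 16 through a median of 27.4% to 51.3% in mouse 11, and the highest mid-length share was 10.7%. The classes did not overlap over mice. The difference was 19.6 ± 10.4 points, above 0 in 12 of 12 mice (p = 0.000488, exact sign-flip test). The values of mice are linked through the other mice, which the test does not take into account. Without TRBV17 the shares were 18.1% ± 6.74 and 9.06% ± 1.06, higher in 11 of 12 mice (exact sign-flip test, p = 0.00146), so the difference fell from 19.6 to 9.04 points.

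The difference held within classes of clone size. Among clonotypes of 1 count, 22.3% of short and 5.71% of mid-length ones were found in another mouse, and among those of over 10 counts, 42.9% and 15.4%. Over all retained data 681 short clonotypes (10.8%) were found in 2 or more mice and 34 (0.541%) in 8 or more, against 1512 (3.79%) and 12 (0.0301%) of the mid-length ones. Clonotypes found in more than 1 mouse held 89.1% ± 5.11 of the short counts of a mouse (range 80.9% to 97.0%) and 52.6% ± 16.0 of the mid-length counts. Most short counts of every mouse thus belonged to clonotypes found in other mice too.

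In most cases, however, a shared clonotype was very rare in every mouse but its top mouse, the one where it was largest. Of the 681 shared short clonotypes, 21 (3.08%) reached 0.05% in a second mouse, as did 37 of the 1512 mid-length ones (2.45%). Of the 1312 findings of a short clonotype outside its top mouse, 910 (69.4%) rested on 10 or fewer counts, and 594 (45.3%) had the same main nucleotide sequence as the top mouse. Both together held for 412 (31.4%). For the 2153 mid-length findings the corresponding shares were 51.4%, 27.1% and 15.3%. Whether some of these findings are sequences carried over between libraries was not tested. Counted only where another mouse held the clonotype by a nucleotide sequence that the mouse itself lacked, sharing was 22.3% ± 8.01 against 7.39% ± 0.957 (difference 14.9 points, 12 of 12 mice, exact sign-flip test, p = 0.000488). Any such sequence counted, rare variants of a large clone among them, so this count is no test of carry-over. With a minimum of 10 counts per sequence it was 22.9% ± 9.85 against 8.73% ± 1.29 (difference 14.2 points, 12 of 12 mice, exact sign-flip test, p = 0.000488).

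The public clonotypes given here differed in this. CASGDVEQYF was found in 11 mice, between 0.0642% in mouse 6 and 7.08% in mouse 7, with no retained count in mouse 10. All 11 mice had the same main sequence. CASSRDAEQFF was found in all 12 mice. It reached 0.05% in 5 of them, namely 56.2% in mouse 6, 2.76% in mouse 19, 0.914% in mouse 14, 0.804% in mouse 12 and 0.0978% in mouse 20. Mice 12 and 19 shared a main sequence unlike that of mouse 6 and mouse 14 had another, whereas 7 mice had that of mouse 6, namely mouse 20 with 249 counts, mouse 4 with 74, and mice 3, 7, 10, 16 and 17 with 2 to 21.

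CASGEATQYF, with 400322 counts in mouse 16, was found in 10 other mice at 4 to 17 counts each, always with the same sequence. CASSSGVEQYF was found in 11 mice and reached 0.05% in mice 10 (13.0%) and 17 (3.19%), whose main sequences differed. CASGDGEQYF, another clonotype found in 11 mice, had a mean over the tumors of a mouse of at most 0.0744%. Its main sequence differs from that of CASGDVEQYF by T17G, counted from the first base of the CDR3. For every 100 counts of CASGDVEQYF a mouse had a median of 1.03 counts of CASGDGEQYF, and between 0.598 and 1.39 in all mice but mouse 19, which had 9.78. The level of the rarer clonotype thus followed that of the more common one in 10 of 11 mice.

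Such close neighbours were frequent among short CDR3s. Sequences 1 base away from a sequence of the same library, V, J and length with at least 20 times the counts were merged into it, an alternative chosen after the data were seen. This left 3306 of 6290 short clonotypes (52.6%) and 26276 of 39925 mid-length ones (65.8%). After merging, sharing between mice was 23.5% ± 6.65 against 9.30% ± 0.941, and the log2 ratio of mean clone sizes rose to 1.88 (both 12 of 12 mice, exact sign-flip tests, p = 0.000488). Whether neighbours are separate T cells or errors of copying or reading was not tested.

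Before merging, a short clonotype was encoded by 1.36 ± 0.0703 nucleotide sequences in a mouse and a mid-length one by 1.12 ± 0.0301 (thinned libraries, SD, n = 12 mice). The short value was the higher one in 12 of 12 mice, by 0.236 ± 0.0722 (p = 0.000488, exact sign-flip test). The short values lay between 1.28 and 1.52 and the mid-length values between 1.06 and 1.16. Merging brought the values to 1.14 ± 0.0512 and 1.03 ± 0.00861, and the difference to 0.120 (12 of 12 mice, exact sign-flip test, p = 0.000488).

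**Figure D4:**
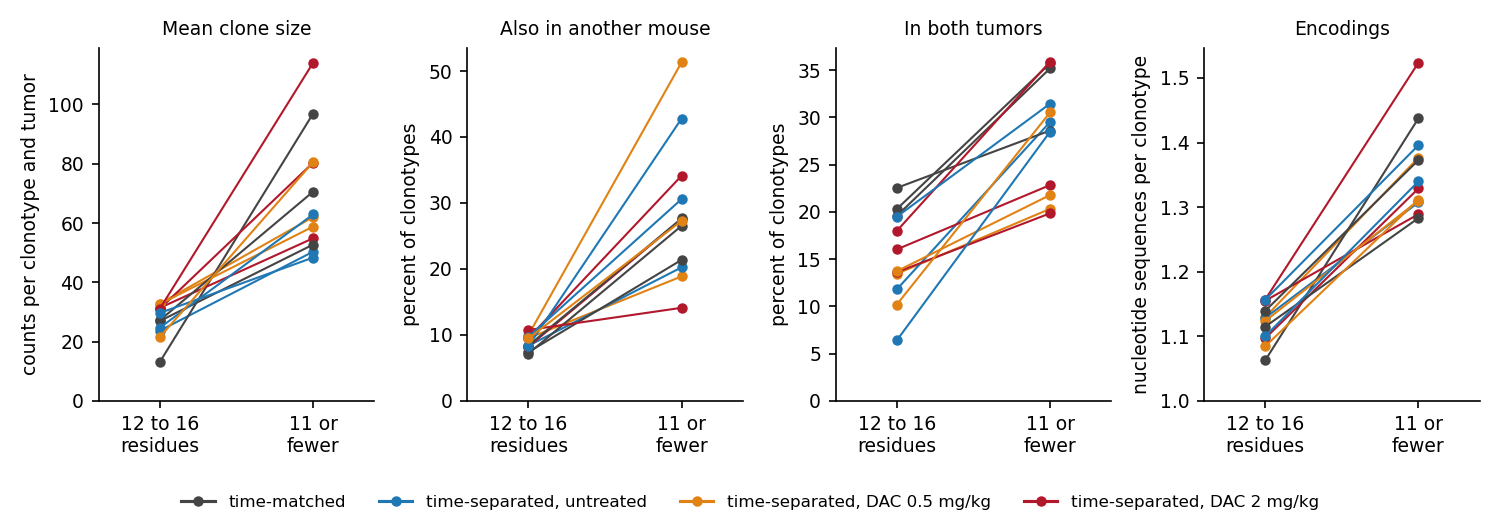
Mean clone size in counts, percent of clonotypes found in another mouse, percent found in both tumors and nucleotide sequences per clonotype (axis from 1), for mid-length (left point) and short (right point) CDR3s of each of the 12 mice, coloured by group, in libraries thinned to 63291 counts. Every line rises from mid-length to short.

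The last comparison was persistence, meaning presence in both tumors of a mouse. Of the short clonotypes of a mouse, 28.3% ± 5.91 were found in both tumors, against 15.4% ± 4.74 of mid-length ones (thinned libraries, SD, n = 12 mice). The difference of 12.9 ± 5.95 points had the same sign in 12 of 12 mice (p = 0.000488, exact sign-flip test) and ran from 6.06 in mouse 12 to 22.1 in mouse 19. By counts, 94.9% ± 3.64 of the short class and 79.9% ± 11.9 of the mid-length class lay in clonotypes found in both tumors. After merging of neighbours the shares of clonotypes were 17.9% ± 4.74 and 11.2% ± 4.67, and the difference was 6.64 points (12 of 12 mice, exact sign-flip test, p = 0.000488). Without TRBV17 the difference was 6.22 points and held in 9 of 12 mice (exact sign-flip test, p = 0.0273).

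Among short CDR3s alone, the percent of clonotypes in both tumors was 35.7, 28.6 and 35.2 in the time-matched mice 6, 12 and 14, and 29.5, 31.4 and 28.5 in the untreated time-separated mice 4, 17 and 19. It was 20.3, 21.8 and 30.5 in mice 3, 11 and 20 and 19.8, 22.8 and 35.9 in mice 7, 10 and 16. Time-matched mice had 33.2% ± 3.96 and all 9 time-separated mice 26.7% ± 5.69, and the groups overlapped, since mice 4, 16, 17 and 20 lay above mouse 12 (exact permutation test, 3 against 9, two-sided, p = 0.109). Without mouse 16, with the libraries thinned anew, the difference rose from 6.43 to 7.50 points (exact permutation test, p = 0.0485). Without thinning, when the deeper time-matched libraries enter whole, it was 13.9 points (exact permutation test, p = 0.00909).

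Large short clonotypes, with at least 0.5% of counts in a tumor, numbered 16 in the time-matched mice. All 16 were found in both tumors and 1 differed more than 2-fold. In the time-separated mice there were 69, of which 66 were found in both tumors and 46 (66.7%) differed more than 2-fold. The groups of time-separated mice held 14 of 27 such changes without drug, 17 of 23 under 0.5 mg/kg and 15 of 19 under 2 mg/kg. For mid-length clonotypes of that size they were 51 of 70, 70 of 81 and 33 of 50 in the same order. The median absolute log2 ratio between tumors, with 1 count added, lay between 0.13 and 0.62 in the time-matched mice and between 0.24 and 3.45 in the time-separated mice, and the ranges overlapped through mouse 16 at 0.24. Of mid-length clonotypes of that size, 154 of 201 in time-separated and 4 of 30 in time-matched mice differed more than 2-fold. Clonotypes are not replicates, so these are counts with no test.

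The 3 largest differences between tumors among short clonotypes were clones large in 1 tumor with no retained count in the other. Which tumor came first is not known. Sequences of 1 count had been left out, so the limit of 3 counts used for 0 and the folds below are approximate. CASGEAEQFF (TRBV13-2, TRBJ2-1) had 0 of 185931 retained counts in tumor 1 of mouse 3, with a limit of 0.00161%. In tumor 2 it had 583 of 63291 (0.921%), or 571-fold that limit. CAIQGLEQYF (TRBV29, TRBJ2-7) had 0 of 199081 retained counts in tumor 1 of mouse 11 and 761 of 98820 (0.770%) in tumor 2, or 511-fold the limit. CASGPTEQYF (TRBV13-2, TRBJ2-7) had 0 of 173813 retained counts in tumor 1 of mouse 4 and 1041 of 169451 (0.614%) in tumor 2, or 356-fold the limit. The last was also the largest short clonotype in tumor 2 of mouse 3, with 2.48% and 5.73% of counts in its tumors, and was found in no other mouse.

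**Figure D5:**
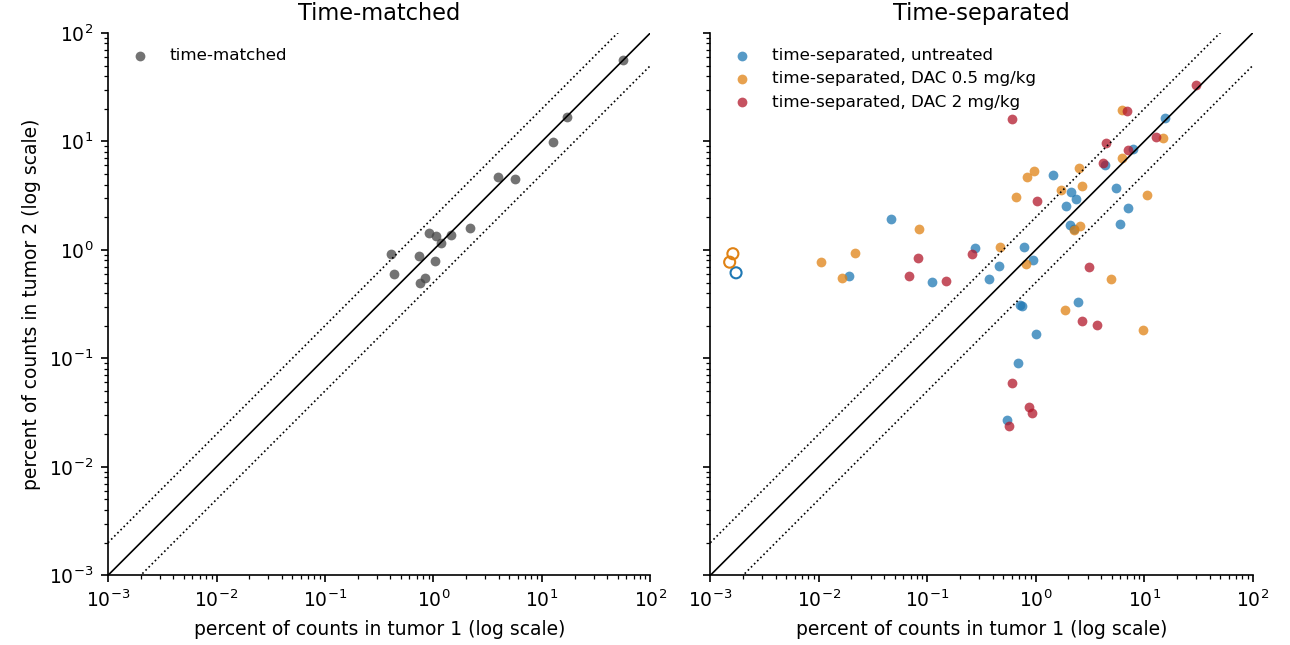
Percent of counts in tumor 1 and tumor 2, on log axes, for each short clonotype with at least 0.5% in a tumor, in time-matched (left, 16 points) and time-separated mice (right, 69 points). The solid line marks equal shares and the dotted lines a 2-fold difference, and open circles stand at the limit of 3 counts used for 0 retained counts. One time-matched point and 46 time-separated points lie outside the dotted lines.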

How the data were processed

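Whole-tumor RNA of 12 mice, 2 tumors each, had been sequenced with unique molecular identifiers, and the authors called clonotypes with the Cogent NGS Immune Profiler version 2.0. The deposited counts, 1 per receptor sequence, had been neither normalized nor filtered, and the study describes identifier-based analysis but calls the counts reads, so whether a count is a read or a molecule is not settled. Genome build and germline set are not given in the sources used here, and TCRα tables were not used.

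Sequences with a stop mark or under 2 counts were left out. Count shares used all retained counts. Clonotype numbers, sizes, sharing, persistence and encodings used libraries thinned to 63291 counts (20 draws, seed 20). Sequences under 2 counts were left out before thinning. Thinned deep libraries could thus hold sequences of 1 count, which the smallest library could not, so depth was evened in part only. The mouse was the unit. Exact two-sided sign-flip permutation over the 12 mice tested paired differences and exact two-sided permutation of mice tested groups. Segments were those of at least 0.5% in either class, with Benjamini-Hochberg adjustment and a threshold of 0.05. Limits of 0 took 3 counts, without regard to the sequences of 1 count left out, and intervals were 95% Clopper-Pearson.

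Named clonotypes were the largest short one of each mouse, 5 found in the most mice (1 in 12 mice and 4 of the 7 tied at 11, ties broken by the summed share outside the top mouse), the largest of 9 or fewer residues and the 3 with the largest change between tumors. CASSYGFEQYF was chosen after its values were seen. One further clonotype, both the largest short one of a mouse and among those 5, is not reported here. Named segments were those that passed and the 3 most used of each class. Members, lists and alternatives were chosen with earlier results of these data known. The functions were tested on simulated data. Python 3.11.15, numpy 2.4.6, pandas 2.3.3, scipy 1.17.1 and matplotlib 3.10.9 were used.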

Additional observations from a re-analysis of the deposited data

How the results depend on the processing

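The higher sharing, persistence and number of encodings of short CDR3s kept their direction and their side of the threshold under every alternative run for them, with differences from 9.04 to 21.3 points for sharing, from 6.22 to 21.6 points for persistence and from 0.120 to 0.271 for encodings. The upper ends for sharing and persistence are means over the classes of clone size. With each mouse left out in turn they ran from 17.2 to 20.7 points, from 12.1 to 13.4 points and from 0.222 to 0.245. Libraries were thinned anew each time a mouse was left out. The mouse served as the pair in these tests. Taking the 24 tumors as single values, with no pairing by mouse, changed no call on the share of counts.

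The log2 ratio of mean clone sizes lost its call at 10 or fewer residues (0.50), without TRBV17 (0.50) and without the largest short clonotype of each mouse (0.16). That of the medians lost it with single counts kept (0) and with a minimum of 10 counts (-0.0446). The V segments called higher numbered 2 at 10 or fewer residues and 3 at 12 or fewer, and the J segments called higher 1 at 10 or fewer. At 10 or fewer residues TRBV17 turned to -5.97 points, TRBV14 to -1.84 and TRBJ2-1 to -3.67. At 12 or fewer TRBV20 turned to 0.989, TRBJ2-1 to -1.85 and TRBJ1-5 to 0.0896. TRBV30 turned to -0.407 by counts and TRBV14 to -0.169 points with neighbours merged. Lower calls were lost for TRBV20 with a minimum of 10 counts and with neighbours merged, and for TRBV2 and TRBJ2-4 by counts. They were also lost for TRBV31, TRBV20 and TRBV16 at 10 or fewer residues and for TRBV31 and TRBV3 at 12 or fewer. TRBV15 passed as lower by amino acids alone, by nucleotides and without thinning, and TRBV4 and TRBV14 at 10 or fewer. With mice left out in turn TRBV14 ran from -1.72 (without mouse 3) to 0.957 and TRBJ2-1 from -1.75 (without mouse 6) to 4.10.

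Persistence of short CDR3s, time-matched minus all time-separated, passed the threshold with single counts kept (4.58 points) and without thinning (13.9), ran from 4.61 to 8.51 with mice left out, passed there without mouse 16 alone, and turned to -0.522 at 10 or fewer residues, as did the difference from untreated mice (-2.43).

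Group and tumor differences in the share of short CDR3s, which did not pass as reported, often changed sign. For counts, time-matched minus untreated time-separated was -2.91 at 10 or fewer residues, -3.58 without the largest short clonotype and -8.86 without TRBV17. Time-matched minus all time-separated was -5.88, -6.29 and -12.9 in that order. At 10 or fewer residues 0.5 mg/kg DAC minus untreated was -0.224, tumor 2 minus tumor 1 was 0.164 in time-matched, 1.35 in untreated and -0.868 in 0.5 mg/kg mice, and the absolute tumor difference, -1.97, passed. The 0.5 mg/kg tumor difference was also -0.932 without the largest clonotype and -0.219 without TRBV17.

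For clonotypes, time-matched minus all time-separated was 1.04 with single counts kept, 0.0414 by amino acids alone, 0.452 by nucleotides, 0.275 at 12 or fewer residues and 1.70 without thinning. Time-matched minus untreated was -1.03 at 10 or fewer residues, -0.738 with neighbours merged and -2.91 without TRBV17. The 0.5 mg/kg DAC difference from untreated was 0.414 with single counts kept, 0.756 with a minimum of 10 counts and 0.432 at 12 or fewer residues. Tumor 2 minus tumor 1 was 0.160 (minimum of 10 counts), 0.311 (10 or fewer residues), 0.0575 (cysteine and phenylalanine ends) and 0.0957 (without TRBV17) in time-matched mice, and -0.358 (nucleotides) and -0.278 (neighbours merged) in 0.5 mg/kg mice.

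With mice left out in turn the count differences ran from -0.902 to 21.6 (time-matched minus untreated, negative without mouse 6), -4.69 to 17.8 (minus all time-separated, likewise), -6.36 to 8.12 (0.5 mg/kg minus untreated, negative without mouse 20 and without mouse 19) and -1.11 to 17.3 (2 mg/kg minus untreated, negative without mouse 16). Tumor differences ran from -2.22 to 0.506 in time-matched, -4.72 to 2.71 in untreated and -8.76 to 8.92 in 0.5 mg/kg mice. For clonotypes the first 3 of these ran from -1.25 to 4.44, -2.24 to 3.46 and -3.02 to 1.62, and the tumor differences from -0.213 to 0.314 in time-matched and -2.47 to 2.70 in 0.5 mg/kg mice. With 3 mice per group these ranges are wide, and how many cells gave a count is not known, so the intervals cover counting error only. Leaving out TRBV17, merging neighbours and counting another mouse's differing nucleotide sequence were chosen after seeing the data. The causes of these changes were not tested.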
